A study of Mus musculus with 2 samples.

Results

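The 2 mitochondrial ribosomal RNA genes, mt-Rnr1 (12S) and mt-Rnr2 (16S), were examined for listed cytosines in a map of 5-hydroxymethylcytosine (5hmC) from E14 cells, an established line of mouse embryonic stem cells. All cytosines listed on chromosome M from position 70 to 2675 (mm9) were taken: mt-Rnr1 at 70 to 1024, the gene of tRNA-Val at 1025 to 1093 and mt-Rnr2 at 1094 to 2675. They numbered 729 of the 3297 listed on mitochondrial DNA and of 13025343 in the whole table. The series holds 2 libraries, replicates 1 and 2 of 1 group of E14 cells at passage 12, with no treatment named in the labels and no control without glucosylation or without 5hmC. The table gives 1 count per cytosine for both libraries together, so no value below has a replicate error and no test between samples was possible. Nothing in the labels says whether the libraries came from separate cultures.

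In the assay, 5hmC is glucosylated and the DNA is cut with AbaSI, an enzyme that binds the glucosylated base and cleaves the DNA within a narrow range of distances from it. A read that begins at the cut is then assigned to a cytosine. Mitochondrial DNA is a small circle present in many copies per cell and carries no histones. Its rRNA genes encode the RNA cores of the mitochondrial ribosome, mt-Rnr1 that of the small subunit and mt-Rnr2 that of the large subunit, which translate the proteins encoded on the same circle. Both rRNAs have the sequence of the plus strand of the reference, and tRNA-Val lies between them and is cut out of their common precursor. In the RefSeq gene table of GRCm38.p6, tRNA-Phe precedes mt-Rnr1 and the first tRNA-Leu gene follows mt-Rnr2.

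No mitochondrial sequence was used here, but each listed line gives 2 bases, the cytosine and the base after it. Together the lines gave 1241 of the 2606 bases (47.6%) with 0 conflicts. The stretches that hold the highest counts are shown first. They are plus-strand bases of mm9, 5′ to 3′, n is a base that no listed line gives, and capitals mark the cytosines named (a G is a minus-strand cytosine).
mt-Rnr1, chrM:110-143: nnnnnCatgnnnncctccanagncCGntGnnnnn
mt-Rnr2, chrM:2056-2089: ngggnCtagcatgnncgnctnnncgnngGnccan
mt-Rnr2, chrM:2537-2568: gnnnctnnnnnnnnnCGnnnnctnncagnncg
In the mt-Rnr1 stretch, the capital CG is the dyad (a CG with a cytosine on each strand) at 134 and 135, and the outer capitals are cytosines at 115 and 138 with equal counts. In the first mt-Rnr2 stretch the capitals are the equal pair at 2061 and 2084, and in the second the dyad at 2552 and 2553.

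The rRNA genes with tRNA-Val held 12288 reads, with 2 to 61 reads per listed cytosine, a median of 15 and quartiles of 9 and 22. Totals are sums over listed cytosines, so any read listed at several cytosines would be counted at each. mt-Rnr1 had 270 sites with 4573 reads and mt-Rnr2 had 435 sites with 7236 reads. Per length they were close, at 282.7 sites and 4788 reads per kb in mt-Rnr1 and 275.0 sites and 4574 reads per kb in mt-Rnr2. The mean was 16.9 ± 9.35 reads per site (SD over 270 sites) in mt-Rnr1 and 16.6 ± 9.68 (SD over 435 sites) in mt-Rnr2, a difference far below the spread between sites. The 69 bp of tRNA-Val held 24 sites with 479 reads, a mean of 19.96 ± 12.1, and none of the 24 was a CG. The lowest listed count in the table was 2, and a cytosine that is not listed cannot be read as a 0.

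**Figure D1:**
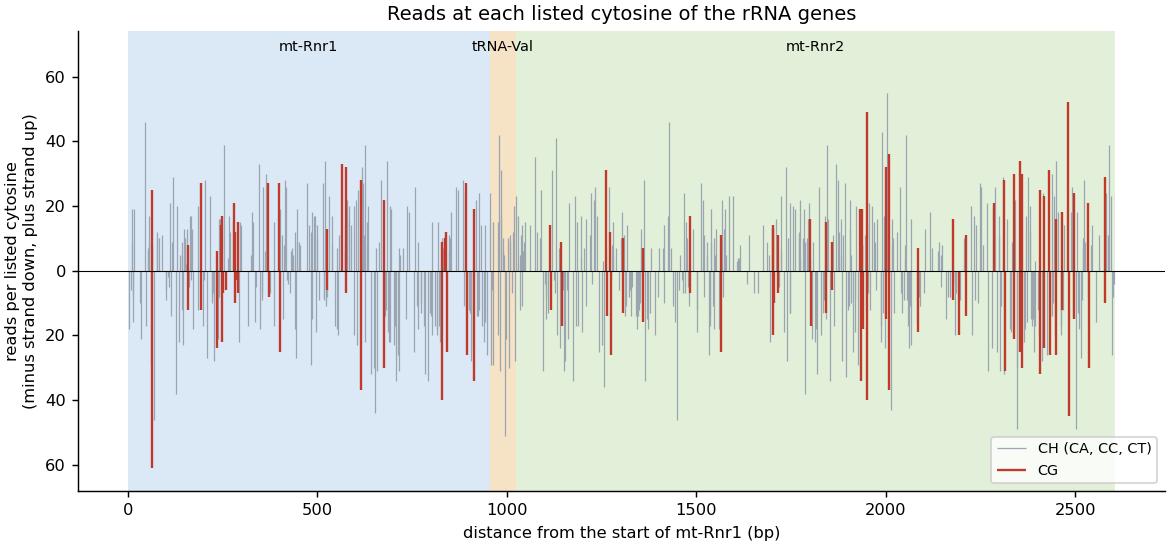
Reads at each listed cytosine against the distance in bp from the start of mt-Rnr1, with the plus strand drawn upward and the minus strand downward, CG in red and CH (CA, CC and CT) in grey. Sites are present throughout both genes on both strands, no site exceeds 61 reads, and CG sites are unevenly spread, with 13 in the 100 bp that begin at a distance of 200 and 14 in the 100 bp that begin at 2400.

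Sites followed each other closely along both genes. The median distance between listed positions was 3 bp, and the longest was the 18 bp between the sites at 524 and 542 in mt-Rnr1. In tiles of 100 bp counted from the start of mt-Rnr1, mt-Rnr1 reads ranged from 284 on 19 sites (370 to 469) to 704 on 30 sites (670 to 769). mt-Rnr2 had both the emptiest and the fullest tile. The tile from 1670 to 1769 held 98 reads on 12 sites, none of them CG, and the tile from 2470 to 2569 held 763 reads on 34 sites, 14 of them CG. Over the 26 tiles the reads rose with the number of listed sites (Spearman 0.83). The reads of a tile are the sum over its listed sites, so this correlation is partly built in. Reads on the plus and minus strands come from separate sites, and their correlation (0.41) cannot be ranked against it. Some opposite-strand sites 23 bp apart carried equal counts, as given below, and whether such pairs raise the 0.41 was not tested. These correlations describe tiles of 1 pooled table that share depth and base composition.

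Against the rest of mitochondrial DNA, the density of the rRNA genes depended on how the rest was measured. Over the whole span of listed positions (11 to 16283) the rest had 187.9 sites and 3432 reads per kb, below the 279.7 and 4715 of the rRNA genes. That span includes 4534 bp, from 6451 to 10984, without any listed cytosine. With this stretch left out, a choice made after seeing the data, the rest had 281.2 sites and 5135 reads per kb. The ratio of reads per kb then went from 1.37 to 0.918, so its direction turned, and the density of sites was nearly equal. Why no site was listed there was not tested. In tiles of 500 bp free of that stretch, the 5 inside the rRNA genes held 1965 to 2764 reads and 133 to 144 sites, all within the 1187 to 3855 reads and 80 to 170 sites of the 16 tiles elsewhere. Blocks of the same 2606 bp elsewhere that were clear of it held 12850 reads on 742 sites (2676 to 5281) and 14683 reads on 775 sites (13100 to 15705). The sites with the most reads also lay elsewhere, the highest being a CA at 13384 with 175 reads. As many as 19 sites of the rest exceeded the highest count of the rRNA genes.

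**Figure D2:**
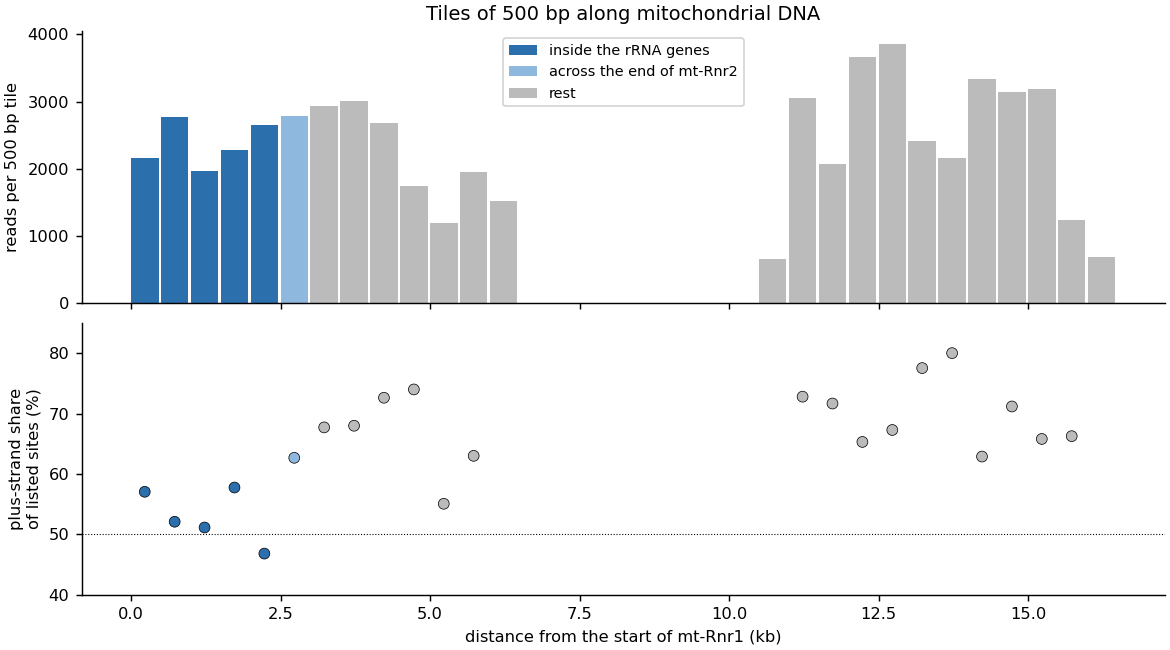
Reads per tile of 500 bp (bars, above) and the plus-strand share of listed sites in percent (points, below) against the distance in kb from the start of mt-Rnr1, with the rRNA genes in dark blue and the tile across the end of mt-Rnr2 in light blue. Read totals of the rRNA genes lie inside the range of the other tiles, a stretch without sites interrupts the rest, and the plus-strand share is 46.8% to 57.7% in the 5 dark blue tiles; points are drawn only for tiles clear of that stretch.

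The strands were listed more evenly in the rRNA genes than in the rest. In the rRNA genes there were 387 plus-strand and 342 minus-strand sites, a plus share of 53.1% (exact Clopper-Pearson 95% interval 49.4 to 56.8), against 68.5% (66.6 to 70.3) in the rest. By reads the plus share was 51.8% (50.9 to 52.7) against 66.2% (65.8 to 66.7). All such intervals cover counting error only. mt-Rnr1 had a plus share of sites of 54.4% (48.3 to 60.5) and mt-Rnr2 of 52.0% (47.1 to 56.7), so the genes did not differ beyond these intervals. CG sites numbered 58 plus and 57 minus in the rRNA genes and 134 and 135 in the rest. A CG has a cytosine on each strand and most dyads were listed on both, so these numbers had little room to differ. The difference in plus share came from CH sites. Per kb the rRNA genes held 126.2 plus and 109.4 minus CH sites, and the rest without its empty stretch held 177.8 and 73.9. Of the 5 tiles of 500 bp in the rRNA genes, 3 had a plus share below all 16 tiles elsewhere, which ranged from 55.1% to 80.0%. One tile elsewhere, at 55.1%, lay inside the 46.8% to 57.7% of the rRNA genes. The number of cytosines on each strand of the reference was not used, so no rate per cytosine is given, and unequal listing and unequal base composition cannot be told apart.

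CG cytosines were a larger part of the listed sites in the rRNA genes than in the rest. They made up 115 of 729 sites, or 15.8% (13.2 to 18.6), against 10.5% (9.32 to 11.7) in the rest. By reads their share was 18.9% (18.2 to 19.6) against 12.7% (12.4 to 13.0). mt-Rnr1 had 41 CG sites, 15.2% of its sites (11.1 to 20.03), and mt-Rnr2 had 74, or 17.0% (13.6 to 20.9). Per kb this was 44.1 CG sites in the rRNA genes and 29.5 in the rest without its empty stretch. In tiles of 500 bp the CG share of sites was 10.5% to 24.1% in the 5 inside the rRNA genes. In the 16 tiles elsewhere it was 0% to 17.98%, so the ranges overlapped. Of the 5 tiles, 1 lay above all 16, and 9 of the 16 lay below all 5. The number of CG in the reference was not used, so unequal listing and unequal base composition cannot be told apart here. On the 19 autosomes CG made up 91.8% to 95.8% of listed sites. Neither part of mitochondrial DNA came near that range, and most listed cytosines of the rRNA genes were CH.

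Reads per site differed by dinucleotide within the rRNA genes, with CC lowest. CG sites had a mean of 20.2 ± 10.9 reads (SD over 115 sites), CA 17.8 ± 8.87 (218 sites), CT 17.0 ± 9.55 (283 sites) and CC 11.2 ± 7.48 (113 sites). The spreads overlap widely, and the CC mean lies less than 1 SD of the CG sites below the CG mean. These SDs describe single sites and do not give the error of a mean. In the rest the mean was likewise highest at CG, with 22.1 reads, and lowest at CC, with 11.3. Mean reads at CG were 1.24 times those at CH in the rRNA genes and 1.24 times in the rest. The ratio was 1.20 in mt-Rnr1 and 1.29 in mt-Rnr2, with an SD of 0.170 over the 5 tiles of 500 bp. On the autosomes the median count was 9 to 12 reads at CG sites and 5 or 6 at CH sites, against 18 and 15 in the rRNA genes. Mitochondrial DNA is present in many copies per cell and the counts are not scaled for copy number. They therefore do not compare the level of 5hmC per cytosine with that of the autosomes.

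The low counts at CC were mostly on the plus strand. There CC had a median of 8 reads over 62 sites, and on the minus strand 12 over 51 sites. The rest had the same pattern, with 8 reads over 339 plus-strand sites and 14 over 136 minus-strand sites. Where the cytosine right after a plus-strand CC cytosine was listed too, in 47 of 62 cases, it had more reads in 34, fewer in 12 and the same in 1. On the minus strand, with 31 such cases, it had more in 13, fewer in 15 and the same in 3. How neighbouring cytosines share reads depends on the authors' rule for assigning them, a rule that no label states. The CT and CA sites showed another strand difference. CT was listed more often on the minus strand (154 sites) than on the plus strand (129), and CA less often (80 against 138). In the rest both were listed more often on the plus strand, CT at 580 sites against 324 and CA at 705 against 215. CT made up 46.1% of CH sites (42.1 to 50.1) in the rRNA genes and 39.3% (37.3 to 41.4) in the rest, and CA 35.5% (31.7 to 39.4) and 40.02% (38.0 to 42.1). For these strand and share differences too, unequal listing and unequal base composition cannot be told apart.

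**Figure D3:**
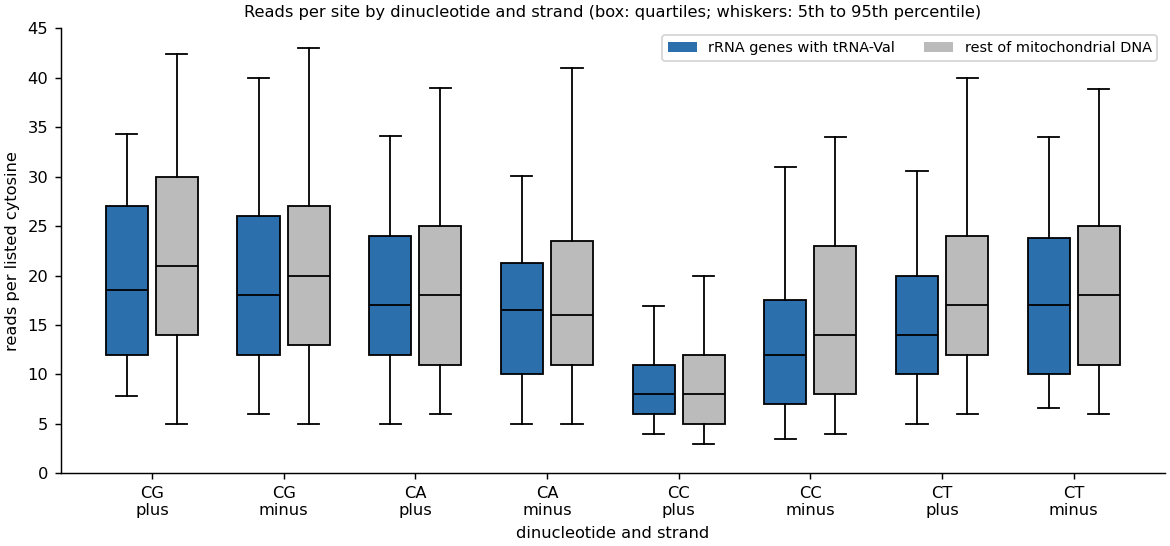
Reads per listed cytosine by dinucleotide and strand, for the rRNA genes with tRNA-Val (blue) and the rest of mitochondrial DNA (grey). Boxes span the quartiles with a line at the median and whiskers reach from the 5th to the 95th percentile; plus-strand CC has the lowest median, 8 reads, in both parts, and every blue box overlaps its grey neighbour.

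Most CG dyads of the rRNA genes were listed on both strands. Of 60 dyads with a listed site, 55 or 91.7% (81.6 to 97.2) had both, against 124 of 145 or 85.5% (78.7 to 90.8) in the rest, intervals that overlap. The autosomes ranged from 33.7% to 48.1%. Sites of the rRNA genes also carried more reads than autosomal sites, as given above, without scaling for the many copies of mitochondrial DNA. With at least 10 reads required of each site, 65.5% of the dyads of the rRNA genes and 23.7% to 36.8% on the autosomes had both strands. The 5 dyads listed on 1 strand were at 327 (6 reads, minus), 635 (33, plus) and 907 (10, plus) in mt-Rnr1, and at 2262 (20, minus) and 2356 (21, plus) in mt-Rnr2. Dyads are named by the position of their plus-strand cytosine.

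In mt-Rnr1 the dyad with the most reads was at 134, shown above, with 25 reads on plus and 61 on minus, the highest count of either gene. The next was at 685, with 28 reads on plus and 37 on minus. Dyads at 963 (27 and 26 reads), 984 (19 and 34), 470 (27 and 25) and 745 (22 and 30) followed. The strands were within 2 reads of each other at 963 and 470, and minus was higher at the other 4.

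In mt-Rnr2 the highest dyad was at 2552, shown above, with 52 reads on plus and 45 on minus. The dyad at 2021 had 49 and 40 reads, and the one at 2079, inside the first mt-Rnr2 stretch printed above, had 36 and 37. The dyads at 2430 (30 and 30), 2383 (28 and 31) and 2424 (34 and 25) came next. In these 6 dyads the strands differed by less than 1.5-fold.

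Across the 55 dyads on both strands, plus and minus means were 20.1 ± 10.2 and 20.5 ± 11.8 reads (SD over dyads). Plus was higher in 28, minus in 26, and 1 was equal. The genes were unlike in strand balance. In mt-Rnr1, 5 of 19 dyads differed by more than 3-fold between strands and the median ratio was 2.14, while in mt-Rnr2, 0 of 36 did and the median ratio was 1.46. In the rest, 20 of 124 differed by more than 3-fold. Named after their values were seen, the 5 in mt-Rnr1 were at 305 (6 and 24 reads), 354 (12 and 3), 441 (27 and 8), 645 (32 and 7) and 898 (9 and 40), so 3 had more on plus and 2 more on minus. The 6 plus reads at 305 equal the 6 minus reads of the single-strand dyad at 327, a pair 23 bp apart described below. The plus reads at 2408 and the minus reads at 2430, the 1 equal dyad, form another such pair. Whether either pair is the same reads was not tested. The Spearman correlation of the strands was 0.13 over 19 dyads in mt-Rnr1 and 0.50 over 36 in mt-Rnr2, a description of dyads that share library and depth. The difference between the genes was not tested, since dyads are not replicates.

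**Figure D4:**
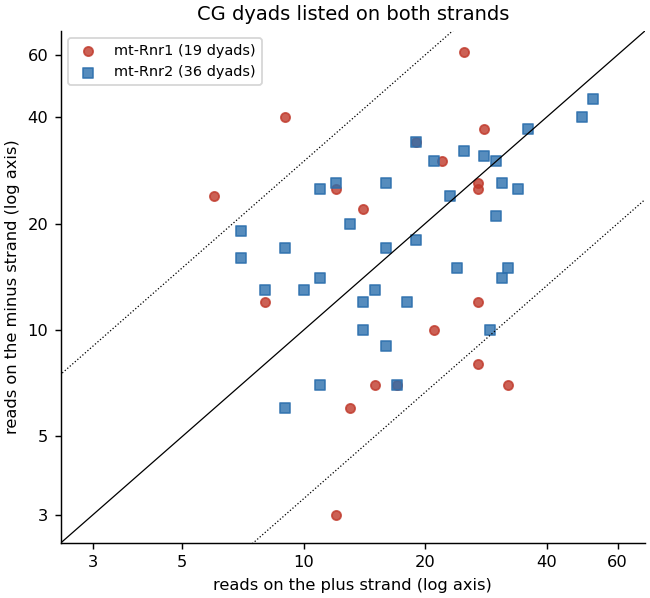
Reads on the minus strand against reads on the plus strand (both log axes) for the CG dyads listed on both strands, 19 in mt-Rnr1 (red circles) and 36 in mt-Rnr2 (blue squares). The solid line marks equal counts and the dotted lines a 3-fold difference; 5 red circles and no blue square lie beyond the dotted lines.

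The highest CH count was above the highest CG count in mt-Rnr2 (55 against 52 reads) and below it in mt-Rnr1 (46 against 61). In mt-Rnr2 the site with the most reads of all was a plus-strand CT at 2074, with 55 reads, and it lies inside the first mt-Rnr2 stretch printed above. Minus-strand CT sites at 2417 and 2572 had 49 reads each. In mt-Rnr1 the CA sites at 115 (plus) and 138 (minus) had 46 reads each and a minus-strand CT at 723 had 44. The minus-strand CG at 899 had 40, the fifth highest of that gene. In tRNA-Val the highest was a minus-strand CT at 1065 with 51 reads, 10.6% of the reads of that gene. No single site held more than 1.33% of the reads of mt-Rnr1 or 0.760% of those of mt-Rnr2. The most-covered 10% of sites took 21.9% of the reads of the rRNA genes and 24.4% in the rest.

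CH cytosines on opposite strands of the same CAG or CTG, which lie 2 bp apart, were both listed in 30 cases, 17 CAG and 13 CTG. Their means were 19.7 reads on plus and 17.7 on minus, and the strands had a Spearman correlation of -0.08 over the 30 cases. For CG dyads of the rRNA genes it was 0.34 over 55. In the rest the values were close to each other, at 0.15 over 129 CAG or CTG cases and 0.14 over 124 CG dyads.

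Each site is deposited with a class code. In the rRNA genes the class 1CH held 458 sites or 62.8% (59.2 to 66.3), 2CH 156 or 21.4% (18.5 to 24.6), 1CG 69 or 9.47% (7.44 to 11.8), CGCH 42 or 5.76% (4.18 to 7.71) and 2CG 4. In the rest 1CH made up 64.8% (62.9 to 66.6), 2CH 24.8% (23.1 to 26.5), 1CG 6.15% (5.25 to 7.15) and CGCH 4.13% (3.39 to 4.97). The intervals of the 2 parts overlapped for 1CH, 2CH and CGCH, and that of 1CG was higher in the rRNA genes, where CG sites as a whole were a larger share. No label states what the codes mean. In the class CGCH the mean was 21.7 ± 12.3 reads and in 1CG 19.4 ± 9.92, a difference below the spread.

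Pairs with equal counts on opposite strands had a single preferred distance. Whether an equal pair is the same reads listed at both cytosines was not tested, and no label states the rule for assigning reads. Of the plus-strand sites of all classes in the rRNA genes, 38 had a minus-strand site 23 bp to the right, and 24 of these pairs (63.2%) carried the same count. At 22 bp, 3 of 55 pairs did, and at 24 bp 2 of 50. In the rest the share was 57.3% at 23 bp and 10.1% at 22 bp. The pair at 115 and 138 in mt-Rnr1, with 46 reads each, and the pair at 2061 and 2084 in mt-Rnr2, with 43 each, are the outer capitals of the sequences printed above. Within the classes 2CH and 2CG, 25 pairs of equal count were found at 21 to 25 bp, 24 of them at 23 bp, with 3 to 46 reads each and a median of 18. Of these, 11 were in mt-Rnr1 and 14 in mt-Rnr2, and 2 were CG pairs, at 305 and 328 with 6 reads each and at 2408 and 2431 with 30 each.

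In the rRNA genes, as in the rest of mitochondrial DNA, pairs of the class 2CH had equal counts less often than on the autosomes. CH sites had a median of 5 or 6 reads there and of 15 in the rRNA genes, where listed positions lay a median of 3 bp apart. Whether count level or site density enters the pairing was not tested. On the autosomes 27.6% of plus-strand 2CH sites had a partner of the class at 22 bp and 31.2% at 23 bp, with equal counts in 88.4% (88.1 to 88.6) and 93.1% (92.9 to 93.3) of these pairs. In the rRNA genes 14 of 77 had one at 22 bp, with equal counts in 1 of 14 (7.14%, interval 0.181 to 33.9), and 36 of 77 at 23 bp, with equal counts in 22 of 36 (61.1%, 43.5 to 76.9). In the rest of mitochondrial DNA 25.6% (20.8 to 30.8) had one at 22 bp and 47.6% (42.0 to 53.3) at 23 bp. Equal counts made up 12.5% (6.16 to 21.8) and 57.0% (48.7 to 65.1) of these pairs. The intervals for equal pairs in the rRNA genes thus overlapped those of the rest and lay below those of the autosomes at both distances. Of the 569 sites of the classes 1CH, 1CG and CGCH in the rRNA genes, 0 had a listed site on the other strand at 23 bp, against 52 at 22 bp and 57 at 24 bp. The bases given by the listed lines placed an unlisted cytosine 23 bp away for 5 of the 569, all in CGCH, and left the base unknown for 347. In the classes 2CH and 2CG, 72 of 156 and 4 of 4 sites had a listed site on the other strand at 23 bp. The rest of mitochondrial DNA was alike, with 0 of 1663 sites in 1CH, 0 of 158 in 1CG and 0 of 106 in CGCH. Its 2CH and 2CG sites had one in 298 of 636 and 2 of 5 cases. Whether the class codes were assigned from such partners was not tested.

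**Figure D5:**
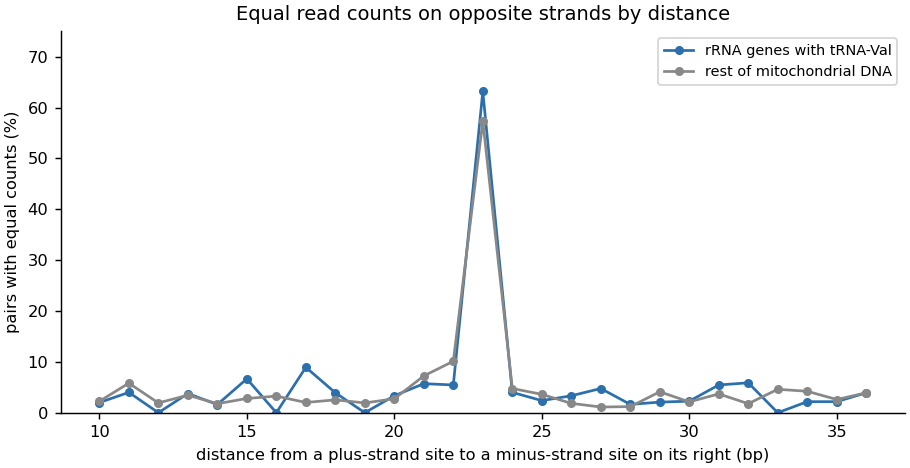
Share of pairs with equal read counts, in percent, against the distance in bp from a plus-strand site to a minus-strand site on its right, for the rRNA genes with tRNA-Val (blue) and the rest of mitochondrial DNA (grey). Both lines peak at 23 bp, at 63.2% and 57.3%, and stay at 10.1% or below at the other distances drawn.

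The single sites next to each edge of the rRNA genes are given as a description only. The last site before mt-Rnr1 was a plus-strand CA at 69 with 8 reads, and the first inside it a minus-strand CT at 73 with 18. The last site of mt-Rnr2 was a minus-strand CC at 2673 with 4 reads, and the first after it a minus-strand CC at 2681 with 9. All counts are of listed sites, and without a control sample they do not separate 5hmC from cutting of other cytosines.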

How the data were processed

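Genomic DNA of E14 cells (100 ng per library) was glucosylated, cut with AbaSI, ligated to a biotinylated adapter and sequenced, per the labels' protocols. CASAVA 1.8.2, Bowtie and the build mm9 are named in the submitters' processing notes. The values are whole-number read counts per cytosine, deposited by the authors without scaling in 1 column for both libraries. No label or processing note says how the libraries were joined, which reads were filtered or how PCR copies were handled. The depth is 176006227 reads on 13025343 sites, 59190 of them on the 3297 mitochondrial sites.

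Positions are the deposited start plus 1. The genes' bounds were set with the choice of region. Densities used the span of listed positions. Named were the 5 sites and the 5 CG dyads with the most reads in each rRNA gene with ties, the top site of tRNA-Val, and the fullest and emptiest tile of 100 bp wholly inside each rRNA gene. The region and these lists were chosen with earlier results of these data known. Shares have exact Clopper-Pearson intervals at 95%, which cover counting error only. The functions were tested on simulated sites. Analyses used Python 3.11.15, numpy 2.4.6, pandas 2.3.3, scipy 1.17.1 and matplotlib 3.10.9. No test between samples was made.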

Additional observations from a re-analysis of the deposited data

How the results depend on the processing

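For 12 results, 62 alternatives were run. In 55 the value stayed within the spread used for comparison (the 95% counting interval for shares, the SD over tiles of 500 bp for ratios and densities, 1.5 times for numbers of sites and reads), and 7 moved. The 55 are not separate checks, since some could not move. The cut for very high counts lay above the 61 reads of the highest rRNA site. The weight of 0.5 cannot change numbers or shares of sites. Leaving out tRNA-Val cannot change CG dyads. Positions as deposited gave the main value each time. A minimum of 10 reads left 541 sites and gave a CG share of reads of 19.8%, 65.5% of CG dyads on both strands and 19.3% of reads on the top 10% of sites. A higher minimum removes sites with few reads by its construction. The CG share of reads was 19.7% without tRNA-Val, which has no CG site, and 20.8% with 2CG and 2CH sites at a weight of 0.5. At that weight the total of the rRNA genes with tRNA-Val was 11019.5 reads instead of 12288. Of 77 plus-strand 2CH sites, 74.03% had a partner of the class at 21 to 25 bp and 62.3% at 22 or 23 bp. The alternative chosen after seeing the data, which left out the stretch of the rest without sites, turned reads per kb relative to the rest from 1.37 to 0.918. No paired analysis was possible because the table pools the replicates of 1 group, and for the same reason no fit without replicate 1 or replicate 2 was run.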
